A study of Mus musculus with 8 samples.

Results

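The nuclear genome encodes most subunits of the mitochondrial respiratory chain, and this account follows those genes in mouse CD4 T cells that carried a Bach2 vector or an empty vector. The members were all protein-coding genes whose mouse symbol starts with Nduf, Uqcr, Cox4, Cox5, Cox6, Cox7, Cox8 or Atp5, together with Cycs and Cyc1. Of the 39179 genes in the count files, 91 met this rule. They comprised 36 subunits of complex I, 8 complex I assembly factors (Ndufaf1 to Ndufaf8), 9 genes of complex III including Cyc1, 20 of complex IV, 17 of complex V and the carrier Cycs. Of the 91, 83 passed the filter on low counts and entered the tests. RNA was sequenced in 8 libraries, 2 in each of 4 groups: Tfh cells (follicular helper T cells, which give help to B cells) with empty vector, Tfh cells with Bach2, non-Tfh cells with empty vector and non-Tfh cells with Bach2.

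All 4 groups shared the same source of cells and the same handling. The T cells were from Smarta mice, which carry a transgenic T cell receptor, on a C57BL/6 background with a tamoxifen-activated CreERT2. They were transduced with a retroviral vector whose insert is switched on by the recombinase, and were transferred into C57BL/6 hosts. The hosts were immunized under the skin with nitrophenol and the GP61-80 peptide, the ligand of the receptor, both coupled to mouse serum albumin. Tamoxifen was injected on day 5 and the cells were taken on day 6, 18 hours after induction, from inguinal lymph nodes that had been pooled. Thy-1.1+ CD44hi cells were sorted as CXCR5+ PD-1+ (Tfh) or CXCR5- PD-1- (non-Tfh). The controls therefore carried CreERT2, an empty vector and tamoxifen as well, every cell had 1 receptor specificity, and the hosts kept their own lymphocytes. The sources used here do not give the ages of the animals.

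Library totals ran from 7862879 to 9889859 counts. Bach2, the gene in the vector, was at 12.6 ± 1.99 CPM in Tfh cells with empty vector and at 127.8 ± 9.85 CPM with Bach2 (SD, n = 2; CPM are counts scaled to the size of the library). In non-Tfh cells it was at 26.9 ± 2.88 and 144.0 ± 19.1 CPM (SD, n = 2), so every library fitted its vector label. All 7 CD4 T cell markers were present in the libraries, and the summed level of 7 Tfh markers was higher in every Tfh than in every non-Tfh library. These markers were lower with Bach2, at 2976 to 3393 against 2398 to 2826 CPM in Tfh cells and at 1322 to 1414 against 906.3 to 1024 CPM in non-Tfh cells. The summed level of 6 non-Tfh markers was 1494 to 2058 CPM with empty vector and 2216 to 2906 CPM with Bach2 in Tfh cells, and 4168 to 4219 against 4356 to 4921 CPM in non-Tfh cells. Markers of B cells were low but present, at 82.31 to 235.8 summed CPM for 8 genes.

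Oxidative phosphorylation passes electrons from NADH through complex I and from succinate through complex II to ubiquinone, then through complex III, cytochrome c and complex IV to oxygen. Complexes I, III and IV pump protons across the inner membrane, and complex V (ATP synthase) uses their return to make ATP. Mitochondrial DNA encodes part of the core of each of these proton-moving complexes, so the nuclear genes must be expressed in step with another genome. T cells enlarge their mitochondrial mass and their respiratory capacity when they are activated, and the nuclear genes are known targets of the factors NRF1, GABP, YY1 and CREB. Bach2 is a repressor that binds Maf recognition elements, which contain the AP-1 core.

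The promoters of 4 of the 8 members that passed a test between the cell types are shown, as examples picked after their values and motifs were seen. Of the members that fell in Tfh against non-Tfh cells, Cycs, Uqcrfs1 and Ndufa10 hold a CREB element and Atp5b holds none of the motifs searched. Of those that rose, Ndufs6 is shown, Uqcrh holds the ETS letters, and Ndufaf3 and Uqcr10 hold none. The windows are from RefSeq on GRCm38.p6, run from 250 bases before to 49 bases after the annotated start (the start is base 0), and lie on the minus strand. Capitals mark the CREB element TGACGTCA in the first 3 members, a match to the NRF1 letters GCGCANGCG read on the opposite strand in Cycs and Ndufs6, and the YY1 letters AAGATGGCG in Ndufs6. None of the marked stretches overlap.
Cycs, chr6:50566520-50566819, minus strand: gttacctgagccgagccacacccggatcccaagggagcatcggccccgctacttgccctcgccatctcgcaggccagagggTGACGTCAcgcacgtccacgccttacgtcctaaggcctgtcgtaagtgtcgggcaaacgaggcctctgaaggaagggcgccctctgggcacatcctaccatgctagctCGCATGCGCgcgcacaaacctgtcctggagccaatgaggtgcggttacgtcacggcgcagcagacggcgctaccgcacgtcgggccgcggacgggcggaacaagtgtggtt
Uqcrfs1, chr13:30545267-30545566, minus strand: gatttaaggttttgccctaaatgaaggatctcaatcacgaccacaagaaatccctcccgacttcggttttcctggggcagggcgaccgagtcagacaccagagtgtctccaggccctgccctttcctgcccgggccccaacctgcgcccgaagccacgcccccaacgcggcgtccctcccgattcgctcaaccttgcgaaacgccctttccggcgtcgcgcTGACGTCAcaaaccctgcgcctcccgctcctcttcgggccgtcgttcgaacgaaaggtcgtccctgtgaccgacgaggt
Ndufa10, chr1:92473709-92474008, minus strand: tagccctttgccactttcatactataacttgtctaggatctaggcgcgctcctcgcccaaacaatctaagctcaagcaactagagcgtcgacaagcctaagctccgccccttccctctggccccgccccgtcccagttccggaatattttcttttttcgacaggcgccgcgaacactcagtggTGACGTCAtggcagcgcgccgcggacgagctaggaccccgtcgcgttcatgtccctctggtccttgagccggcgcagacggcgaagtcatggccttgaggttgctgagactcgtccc
Ndufs6, chr13:73328433-73328732, minus strand: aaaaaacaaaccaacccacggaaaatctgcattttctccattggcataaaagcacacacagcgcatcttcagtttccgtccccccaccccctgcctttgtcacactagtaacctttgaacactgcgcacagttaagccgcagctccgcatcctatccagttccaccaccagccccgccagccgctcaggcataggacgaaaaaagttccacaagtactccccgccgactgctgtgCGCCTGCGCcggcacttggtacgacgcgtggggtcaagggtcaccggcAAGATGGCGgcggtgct

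The CREB element sits at -169 to -162 in Cycs, at -29 to -22 in Uqcrfs1 and at -67 to -60 in Ndufa10. Of the 70 tested members with a window in the RefSeq table, 5 held TGACGTCA on either strand (7.14%). With empty vector the other 2, Ndufa11 and Ndufb2, had positive log2 fold changes between the cell types, 0.17 (adjusted p = 0.216) and 0.24 (adjusted p = 0.273). With Bach2, Ndufa11 had a mean of 86.53 CPM in Tfh against 81.72 CPM in non-Tfh cells. Ndufb2 was then lower in Tfh cells, at 23.13 against 26.85 CPM. TGACGTCA was in 3.46% of 8721 windows of tested genes and in 1.88% of all 27025 windows of the same length. The NRF1 letters were in 20 of the 70 members (28.6%), against 15.1% of tested genes and 6.47% of all windows. The YY1 letters were in 7 members (10%, against 3.68% and 1.49%). The ETS letters CCGGAAG, which GABP reads, were in 15 members (21.4%, against 20.7% and 9.12%). The letters TGANTCAGC, part of a Maf element with the AP-1 core, were in 0 of the 70 members, against 0.906% of tested genes and 1.17% of all windows. Both strands were searched in each case, and these shares are descriptions of the letters in these windows.

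The chain was expressed in every library. Tested members ran from 3.60 to 1318 CPM in their mean over the 8 libraries, with a median of 104.2 CPM. Per kilobase of the principal transcript, the highest levels were those of Atp5b, the catalytic beta subunit of ATP synthase (688.0 CPM per kb), Cox4i1, the largest nuclear-encoded subunit of cytochrome oxidase (458.2), Atp5g3, which encodes the c subunit of the rotor ring (453.4), and Cox8a, a small oxidase subunit (428.3). Assembly factors were lower, with a median of 17.3 CPM per kb and a range from 5.92 for Ndufaf4 to 36.9 for Ndufaf8. The median was 98.3 CPM per kb for complex I, 161.8 for complex III, 231.6 for complex IV and 178.0 for complex V, and Cycs was at 25.7. These levels order the genes within the libraries and depend on the transcript chosen as principal.

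Of the subunits that exist in alternative forms, T cells carried the widely expressed ones. The 8 members that failed the filter were Cox4i2, Cox6a2, Cox6b2, Cox7a1, Cox7b2, Cox8b, Cox8c and Ndufa4l2, forms known from lung, heart and muscle, testis or low oxygen. Cox7b2, Cox8b, Cox8c and Ndufa4l2 had 0 counts in all 8 libraries, which allows up to 3 counts, or 0.303 to 0.382 CPM, in a library. Cox6a2 had 1 count in all, Cox4i2 had 4, and Cox6b2 and Cox7a1 had 34 each, never more than 9 in a library. Their widely expressed partners were well above that. Cox4i1 ran from 331.4 to 373.3 CPM, Cox6a1 from 187.2 to 229.5, Cox6b1 from 171.3 to 204.7, Cox8a from 211.5 to 260.6 and Cox7a2 from 83.95 to 118.6. Of the summed CPM of the c subunit genes, which encode an identical mature protein, Atp5g3 held 69.8% to 73.5% in every library, Atp5g1 held 21.2% to 24.6% and Atp5g2 held 4.61% to 6.28%. No form took the place of another in any group. Close pseudogene copies held counts equal to 27.0% of those of Atp5g2, 6.87% of Atp5l and 6.73% of Ndufs5, so the split of their reads is uncertain.

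With Bach2 in Tfh cells, transcripts of the chain lay slightly lower as a set, and 1 member passed the test. The summed level of the 91 members was 11710 and 12460 CPM in the Tfh libraries with empty vector, 11290 and 10390 CPM with Bach2, 12130 and 12250 CPM in non-Tfh cells with empty vector and 11750 and 11280 CPM with Bach2. The groups with and without Bach2 did not overlap in either cell type, and the difference of the means was -10.3% in Tfh cells and -5.56% in non-Tfh cells. Of the 83 tested members, 80 had a negative estimate in Tfh cells (50.1% of all genes tested did), and the median log2 fold change was -0.17 against -0.00 over all 11475 genes. In the quasi-likelihood test of edgeR, with p-values adjusted over all genes by Benjamini-Hochberg, 0 rose and 1 fell, which is 1.20% of members against 1.71% of all genes (0.549% for rises and 1.16% for falls). With no filter on low counts 2 members fell, Cycs and Uqcr10. At an unadjusted p below 0.05, 25 members were lower and 1 was higher, where 951 of the 11475 genes were lower and 872 higher. In bulk RNA, fewer cells of a type and less RNA per cell cannot be told apart.

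**Figure D1:**
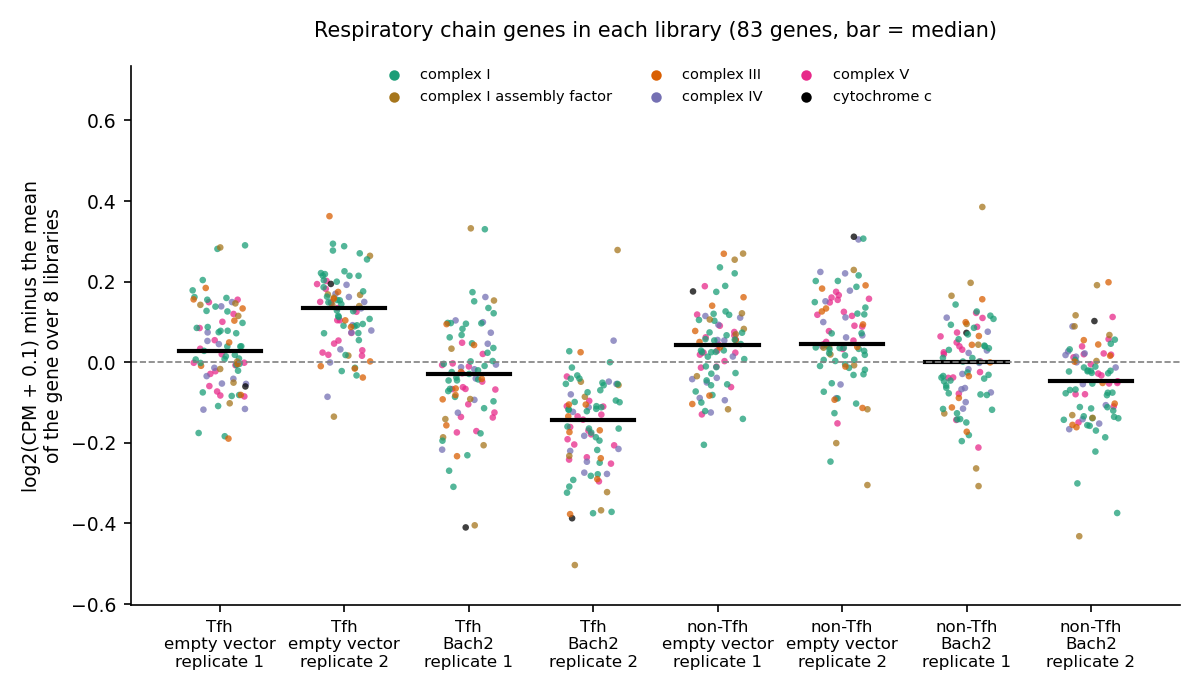
Each point is 1 of the 83 tested members in 1 library; the vertical axis is log2(CPM + 0.1) minus the mean of that gene over the 8 libraries, and bars are medians over the members. The median was highest in Tfh cells with empty vector, replicate 2 (0.13), and lowest in Tfh cells with Bach2, replicate 2 (-0.14).

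The shift was small for each gene and similar in each complex. In Tfh cells the median log2 fold change was -0.15 for complex I, -0.20 for its assembly factors, -0.14 for complex III, -0.14 for complex IV and -0.19 for complex V. All 9 genes of complex III and all 17 of complex V had negative estimates, as did 35 of 36 subunits of complex I and 11 of 12 of complex IV. Within complex V the median was -0.11 for the 5 genes of the F1 head, -0.20 for 8 genes of the Fo part and stalk, and -0.24 for the 3 c subunit genes. Within complex I it was -0.13 for the 7 core subunits and -0.17 for the 29 supernumerary ones. For 74 of the 83 members (89.2%) the 95% interval of the fold change lay inside 1.5-fold in either direction, which was so for 54.7% of all genes. A change beyond 1.5-fold was thus outside the interval of most members.

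The libraries of a group did not lie equally. Tfh cells with Bach2, replicate 2, held the lowest of the 8 values for 46 of the 83 members, and Tfh cells with empty vector, replicate 2, held the highest for 37. Without the first of these the median in Tfh cells was -0.11, and without the second it was -0.13. It was -0.23 without Tfh cells with Bach2, replicate 1, and negative with each library left out in turn. In Tfh cells 54 members had both Bach2 libraries below both empty vector libraries (65.1%, against 22.9% of all genes), and 1 member, Cox7a2l, had both above (1.20%, against 21.7%).

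Respiratory chain transcripts are short, and over all genes the estimate with the vector differed by transcript length. The median principal transcript was 865 bases for the tested members and 2949 bases for 10577 tested genes. In Tfh cells, other genes shorter than 1000 bases had a median log2 fold change of -0.10 (582 genes, 71.1% negative), and other genes of 1000 bases or more had one of 0.01. Members shorter than 1000 bases had a median of -0.16 (48 genes) and longer members one of -0.20 (35 genes). An offset took out the trend of all genes on length, here the merged length of a gene's exons and not the principal transcript. With it the median of the members was -0.10. Cycs was then at -0.44 (adjusted p = 0.0601), close to its value of -0.47 without the offset. The part of RNA quality or amplification in this shift was not tested.

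Cycs, which encodes the cytochrome c that carries electrons from complex III to complex IV and that triggers apoptosis when it leaves the mitochondrion, was the member that fell with Bach2 in Tfh cells (ENSMUSG00000063694, GRCm38 chr6:50562563-50566538, minus strand). Its level was 75.9 and 90.6 CPM with empty vector and 59.6 and 60.5 CPM with Bach2 in Tfh cells, and 89.4 and 98.3 CPM against 83.3 and 85.0 CPM in non-Tfh cells. Both Bach2 libraries of the Tfh cells lay below all 6 other libraries. The log2 fold change in Tfh cells was -0.47 (SE 0.11, adjusted p = 0.0483), close to the threshold. The call was lost without Tfh cells with empty vector, replicate 2 (adjusted p = 0.41), without Tfh cells with Bach2, replicate 1 (0.103) or replicate 2 (0.163), without non-Tfh cells with empty vector, replicate 1 (0.0818) or replicate 2 (0.0795), and when the 2 Tfh groups were fitted alone (0.086), while the estimate stayed between -0.59 and -0.34. In non-Tfh cells it was -0.16 (SE 0.11, adjusted p = 0.676), and the difference between the cell types, -0.31 (95% interval -0.64 to 0.02), did not pass (adjusted p = 0.998). The 3 close pseudogene copies of Cycs had 0 counts.

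**Figure D2:**
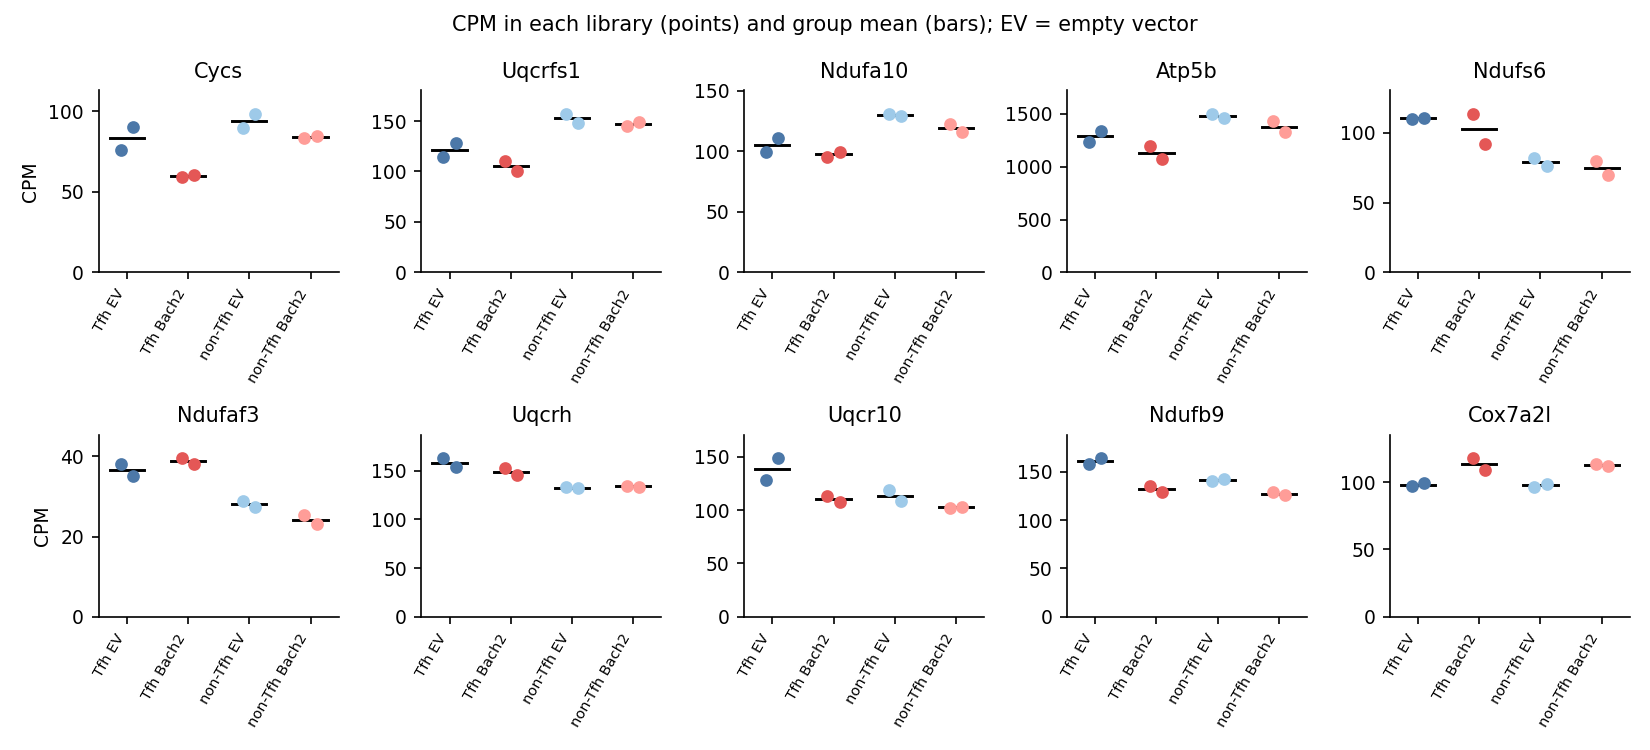
CPM of 10 members in each library (points) with the mean of each group (bars), on axes that start at 0. Cycs is lowest in the 2 Tfh libraries with Bach2, Uqcrfs1 is lower and Ndufs6 and Ndufaf3 are higher in all Tfh than in all non-Tfh libraries, and Cox7a2l is higher in all 4 Bach2 libraries than in all 4 with empty vector.

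In non-Tfh cells the same set lay lower by less, and no member passed. Of 83 members, 0 rose and 0 fell in edgeR's test, where 0.871% of all genes were called (0.253% for rises and 0.619% for falls). At an unadjusted p below 0.05, 4 members were lower, near the share of all genes (585 of 11475). Only 1 was higher, below the share of all genes (603 of 11475). DESeq2 also called 0. The estimate was negative for 67 members (49.8% of all genes) with a median of -0.10. Both Bach2 libraries lay below both empty vector libraries for 46 members (55.4%, against 21.3% of all genes) and above for 5 (6.02%, against 20.9%). By complex the median was -0.10 for complex I, -0.08 for the assembly factors, -0.05 for complex III, -0.13 for complex IV and -0.09 for complex V. The interval lay inside 1.5-fold for 80 of 83 members (96.4%, against 58.8% of all genes). In both cell types at once, 32 members did not overlap in the lower direction (38.6%, against 9.46% of all genes), and 1 did in the higher direction (1.20%, against 8.35%).

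**Figure D3:**
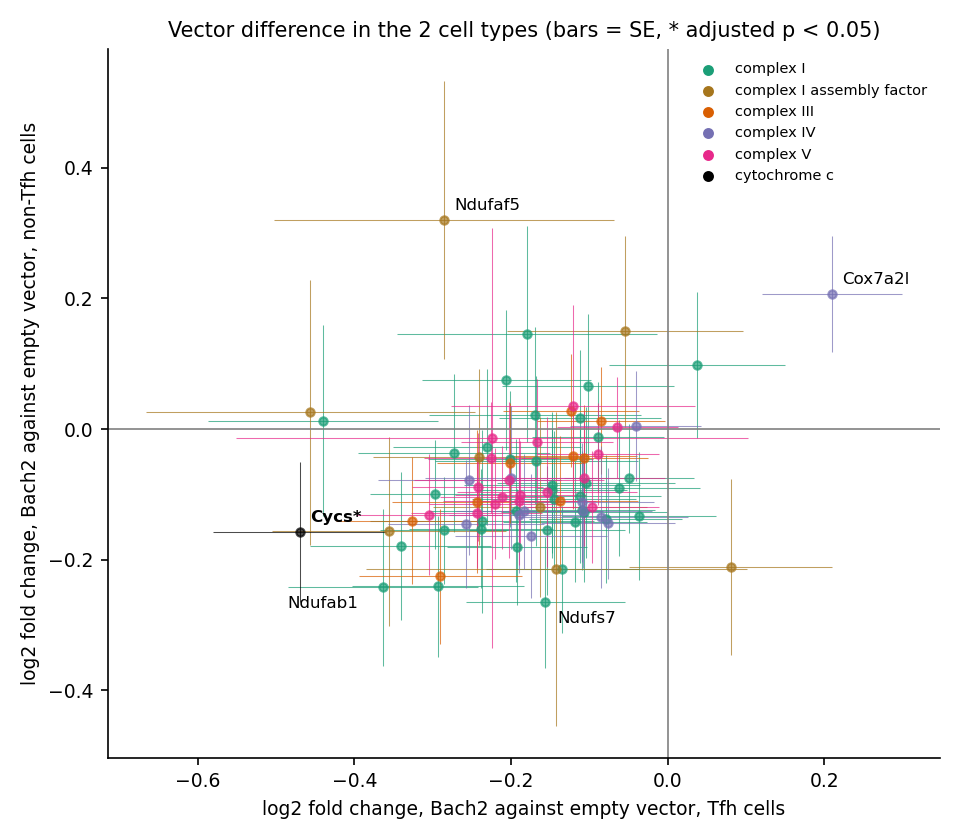
Log2 fold change of Bach2 against empty vector for the 83 tested members, in Tfh cells (horizontal) and in non-Tfh cells (vertical), with bars of 1 SE and an asterisk on the member past an adjusted p of 0.05. Of the members, 66 lie at the lower left of the zero lines, and Cox7a2l stands apart at 0.21 on both axes.

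The estimates in the 2 cell types come from libraries that are not shared, and across the 83 members they had a Pearson r of 0.230, against 0.310 across all genes tested. Genes are not independent replicates, and these correlations are descriptions. Of the members, 66 were negative in both cell types and 2 positive in both. The test of the difference between the cell types called 0 members and 0 of the 11475 genes (0.00%). At an unadjusted p below 0.05 it gave 0 members higher and 1 lower, where 251 of the 11475 genes were higher and 288 lower. The 1 member was Ndufb2, a supernumerary complex I subunit, at -0.45 with adjusted p = 0.998, singled out after its values were seen. DESeq2 also called 0 members. The median difference was -0.08, with 65 negative estimates (50.8% of all genes). The intervals of 68 of 83 members lay inside 1.5-fold (81.9%, against 42.2% of all genes). The median was -0.15 and -0.03 without Tfh cells with Bach2, replicates 1 and 2, -0.04 and -0.12 without non-Tfh cells with Bach2, replicates 1 and 2, and -0.12 without Tfh cells with empty vector, replicate 1.

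Averaged over both cell types, 2 members fell and 0 rose (2.41% of members, against 5.27% of all genes, 2.37% for rises and 2.90% for falls), and 79 estimates were negative (50.1% of all genes) with a median of -0.13. Cycs was 1 of them, at -0.31 (SE 0.08, adjusted p = 0.0326). The other was Ndufb9, a supernumerary subunit of the membrane arm of complex I that belongs to the LYR protein family (ENSMUSG00000022354, GRCm38 chr15:58933756-58939488, plus strand). Ndufb9 was at 158.7 and 164.0 CPM in Tfh cells with empty vector and at 135.9 and 128.9 CPM with Bach2, and at 141.0 and 143.0 CPM against 129.4 and 125.7 CPM in non-Tfh cells. Within each cell type the groups did not overlap, and the average log2 fold change was -0.22 (SE 0.06, adjusted p = 0.0424). The Cycs call was lost when any library other than Tfh cells with empty vector, replicate 1, was left out (adjusted p 0.0509 to 0.158). The Ndufb9 call was lost when any library other than Tfh cells with Bach2, replicate 1, was left out (adjusted p 0.0649 to 0.164), and with the length offset (0.106). With no filter on low counts 7 members passed, and without Tfh cells with Bach2, replicate 1, 4 passed. The number of all genes called also went up, from 605 to 1255 and to 764.

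Cox7a2l, counted here with complex IV, had the highest estimate of any member in Tfh cells. Its level was 96.9 and 99.0 CPM in Tfh cells with empty vector and 117.5 and 109.0 CPM with Bach2. In non-Tfh cells it was 96.3 and 98.7 CPM with empty vector and 113.4 and 111.7 CPM with Bach2. All 4 Bach2 libraries lay above all 4 others. The log2 fold change was 0.21 in both cell types (SE 0.09 in each), with an adjusted p of 0.266 in Tfh cells, 0.437 in non-Tfh cells and 0.0722 averaged over both, so it did not pass the test. It passed with the length offset (0.27, adjusted p = 0.0206).

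Ndufab1, the mitochondrial acyl carrier protein that is also a complex I subunit, went the other way without passing. It was at 57.9 and 61.5 CPM in Tfh cells with empty vector and at 49.9 and 42.8 CPM with Bach2, and at 57.6 and 58.8 CPM against 51.8 and 46.6 CPM in non-Tfh cells. The groups did not overlap, and the average log2 fold change was -0.30 (SE 0.09, adjusted p = 0.0554). It passed with no filter on low counts (0.0259), with the length offset (0.0433) and without Tfh cells with Bach2, replicate 1 (0.0315).

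Subunits of one complex did not all have the same estimate with Bach2. In Tfh cells Cox4i1 had a log2 fold change of -0.04 (95% interval -0.22 to 0.14), Ndufs1, the largest iron-sulfur subunit of complex I, -0.05 (-0.23 to 0.13), and Atp5a1, the alpha subunit of ATP synthase, -0.06 (-0.23 to 0.10). Ndufv2, another iron-sulfur core subunit of complex I, had the lowest estimate of the 7 core subunits, -0.30 (-0.48 to -0.12, adjusted p = 0.0926), and was at 150.9 and 153.5 CPM with empty vector and at 119.8 and 128.0 CPM with Bach2, without overlap. Atp5a1 was at 954.8 and 1024 CPM with empty vector and at 968.5 and 923.9 CPM with Bach2, so the groups overlapped. Its partner Atp5b was at 1236 and 1338 CPM against 1192 and 1068 CPM, with a log2 fold change of -0.19 (-0.37 to -0.01) that did not pass after adjustment (adjusted p = 0.287). Cyc1, the cytochrome subunit of complex III that hands electrons to cytochrome c, had -0.12 (-0.30 to 0.05) in Tfh cells and -0.04 in non-Tfh cells.

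Between the cell types single subunits differed in both directions. The summed level of the 91 members differed, Tfh minus non-Tfh, by -0.873% with empty vector and by -5.85% with Bach2, and the groups overlapped in both. Within each vector the sum over complex V lay lower in both Tfh libraries. It was 4614 and 4943 against 4990 and 5042 CPM with empty vector (-4.74%) and 4427 and 4103 against 4884 and 4640 CPM with Bach2 (-10.4%). With empty vector this was not shared by most of its 17 genes: the median log2 fold change was -0.02, with 8 positive estimates. The most abundant, Atp5b, had means of 1287 against 1478 CPM there. With Bach2 the median was -0.12, with 14 negative estimates. The sum over complex III differed by -1.12% with empty vector, with overlap, and by -7.88% with Bach2, without overlap. For complex I the differences were 3.68% and -0.546%, and for complex IV 1.26% and -0.846%. With empty vector, 3 members rose and 2 fell in Tfh against non-Tfh cells, 6.02% of the 83 against 21.9% of all genes (10.6% higher and 11.3% lower). The median log2 fold change was 0.04, with 51 positive estimates (50.7% of all genes), and the interval lay inside 1.5-fold for 78 members (94.0%, against 45.6% of all genes). Tfh libraries lay wholly above non-Tfh libraries for 27 members (32.5%, against 31.3% of all genes) and wholly below for 17 (20.5%, against 30.9%). The 5 calls became 2 and 3 without Tfh cells with empty vector, replicates 1 and 2, 1 and 0 without non-Tfh cells with empty vector, replicates 1 and 2, 3 without either non-Tfh library with Bach2, and 3 in DESeq2. With Bach2, 2 members rose and 4 fell, 7.23% against 24.4% of all genes (11.6% higher and 12.7% lower), with 53 negative estimates (49.9% of all genes). Its median of -0.06 was -0.11 and 0.02 without Tfh cells with Bach2, replicates 1 and 2, and the median with empty vector was 0.08 and -0.01 without Tfh cells with empty vector, replicates 1 and 2. In that comparison 14 members lay wholly above (16.9%, against 29.3%) and 32 wholly below (38.6%, against 30.5%). The comparisons with empty vector and with Bach2 use different libraries, and across the members their estimates had a Pearson r of 0.732 (0.843 across all genes).

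**Figure D4:**
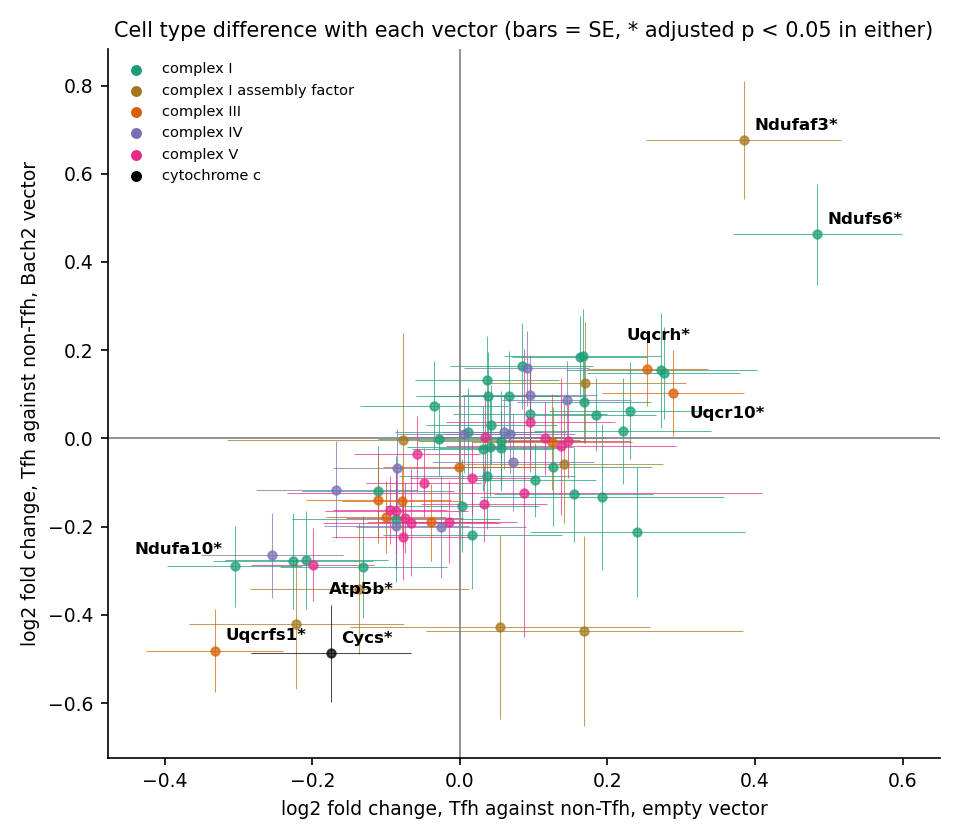
Log2 fold change of Tfh against non-Tfh cells for the 83 tested members, with empty vector (horizontal) and with Bach2 (vertical), with bars of 1 SE and asterisks on members past an adjusted p of 0.05 in either comparison. Ndufs6 and Ndufaf3 lie at the upper right, and Uqcrfs1, Cycs and Ndufa10 at the lower left.

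Uqcrfs1, the Rieske iron-sulfur protein of complex III, was lower in Tfh cells with either vector (ENSMUSG00000038462, GRCm38 chr13:30540308-30545362, minus strand). It was at 114.0 and 128.6 CPM in Tfh cells and 156.7 and 148.4 CPM in non-Tfh cells with empty vector, and at 110.6 and 100.1 CPM against 144.9 and 149.2 CPM with Bach2. All Tfh libraries lay below all non-Tfh libraries. The log2 fold change was -0.33 (SE 0.09, adjusted p = 0.0192) with empty vector and -0.48 (SE 0.09, adjusted p = 0.0017) with Bach2. The second call held under all 16 alternatives. The first was lost without Tfh cells with empty vector, replicate 1 (adjusted p = 0.2), and without non-Tfh cells with empty vector, replicate 1 (0.138) or replicate 2 (0.0695).

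Ndufa10, a nucleoside kinase-like subunit of complex I, was also lower in Tfh cells with either vector (ENSMUSG00000026260, GRCm38 chr1:92439010-92473860, minus strand). It was at 99.2 and 111.0 CPM against 130.6 and 128.9 CPM with empty vector, and at 95.5 and 99.3 CPM against 122.3 and 115.7 CPM with Bach2, with no overlap. The log2 fold change was -0.30 (adjusted p = 0.0279) and -0.29 (adjusted p = 0.0335). The first call was lost without Tfh cells with empty vector, replicate 1 (0.243), and without non-Tfh cells with empty vector, replicate 1 (0.133) or replicate 2 (0.129). The second was lost when any library other than the Tfh libraries with empty vector was left out (adjusted p 0.0549 to 0.164), in DESeq2 (0.0682) and with only the compared groups fitted (0.07).

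Cycs and Atp5b joined them in the comparison with Bach2. Cycs was at 59.6 and 60.5 CPM in Tfh cells against 83.3 and 85.0 CPM in non-Tfh cells, and the log2 fold change of -0.49 (adjusted p = 0.0048, SE 0.11) held under all 16 alternatives. With empty vector it was -0.17 (adjusted p = 0.285). Atp5b was at 1192 and 1068 CPM against 1427 and 1328 CPM, with a log2 fold change at -0.29 (adjusted p = 0.0213, SE 0.08), and at -0.20 (adjusted p = 0.105) with empty vector (ENSMUSG00000025393, GRCm38 chr10:128083273-128090391, plus strand). The Atp5b call was lost without Tfh cells with Bach2, replicate 2 (0.144), and without non-Tfh cells with Bach2, replicate 1 (0.164). The Tfh libraries with Bach2 are shared with the vector comparison, so the low Cycs values enter both.

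Ndufs6, a zinc-binding accessory subunit of the electron-input arm of complex I, was higher in Tfh cells with either vector (ENSMUSG00000021606, GRCm38 chr13:73319838-73328542, minus strand). It was at 110.3 and 110.6 CPM against 81.8 and 76.0 CPM with empty vector, and at 113.4 and 91.9 CPM against 79.6 and 69.6 CPM with Bach2. All Tfh libraries lay above all non-Tfh libraries. The log2 fold change was 0.48 (SE 0.11, adjusted p = 0.0074) and 0.46 (SE 0.11, adjusted p = 0.0088). The calls were lost without non-Tfh cells with empty vector, replicate 2 (0.0832), in the first case, and without Tfh cells with Bach2, replicate 1 (0.111), or non-Tfh cells with Bach2, replicate 2 (0.0847), in the second. Its exons share bases with Mrpl36 on the opposite strand, and the library kit does not keep the strand, so reads there cannot be told apart.

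Of complex III, the hinge protein gene Uqcrh (ENSMUSG00000063882, GRCm38 chr4:116066965-116075071, minus strand) and the small subunit gene Uqcr10 (ENSMUSG00000059534, GRCm38 chr11:4701973-4704342, minus strand) rose in Tfh cells with empty vector, opposite to Uqcrfs1. Uqcrh was at 162.4 and 153.6 CPM against 133.0 and 132.1 CPM, with a log2 fold change at 0.25 (adjusted p = 0.0392, SE 0.08). Uqcr10 was at 128.6 and 148.4 CPM against 118.4 and 108.2 CPM, with a log2 fold change at 0.29 (adjusted p = 0.0461, SE 0.10). The groups did not overlap for either gene. DESeq2 did not call either (0.0992 and 0.0996). The Uqcrh call was lost when any library other than the Tfh libraries with Bach2 was left out (adjusted p 0.0517 to 0.227). The Uqcr10 call was lost without Tfh cells with empty vector, replicate 2 (0.318), and without any of the 4 non-Tfh libraries (0.0502 to 0.29). Both were lost with the length offset (0.0793 and 0.0993), and Uqcrh with no filter on low counts (0.0584). With Bach2 the estimates were 0.16 and 0.10 and did not pass.

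The complex I assembly factors, which act during construction of the enzyme and are absent from the finished complex, had estimates of both signs, and 1 of 8 passed a test. That was 12.5% of them in Tfh against non-Tfh cells with Bach2, where 24.4% of all genes were called. Ndufaf3, which helps to join the early membrane and matrix modules, was higher in Tfh cells (ENSMUSG00000070283, GRCm38 chr9:108565537-108567434, minus strand). It was at 38.2 and 35.1 CPM against 28.9 and 27.3 CPM with empty vector, and at 39.5 and 38.1 CPM against 25.3 and 23.2 CPM with Bach2, with no overlap. The log2 fold change was 0.68 (SE 0.13, adjusted p = 0.0019) with Bach2, held under all 16 alternatives, and 0.38 (SE 0.13, adjusted p = 0.0517) with empty vector. The latter passed with library totals as the scale (0.041), with upper-quartile factors (0.0463) and with only the compared groups fitted (0.0476). Ndufaf3 shares exon bases with Impdh2 on the opposite strand. The other 7 had estimates from -0.44 (Ndufaf5) to 0.13 (Ndufaf8) with Bach2, of which Ndufaf7, a mitochondrial methyltransferase, came nearest to the threshold (-0.42, adjusted p = 0.0537). Ndufaf7 passed with no filter on low counts (0.0414), with the length offset (0.0479) and without Tfh cells with Bach2, replicate 1 (0.0333). With the vector, their estimates in Tfh cells ran from -0.46 (Ndufaf6) to 0.08 (Ndufaf3), and 0 of 8 passed in either cell type.

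Other genes of the same pathway give the setting for these values. Of 8 complex II genes, 0 passed in the vector comparison of either cell type (median -0.14 in Tfh and -0.09 in non-Tfh cells). Averaged over both 1 fell, the iron-sulfur subunit gene Sdhb (-0.22, adjusted p = 0.0469), 12.5% against 5.27% of all genes. Of 31 genes of the TCA cycle and of electron entry, 0 passed in either cell type, with medians of -0.17 and -0.09. Averaged over both 1 fell, the citrate synthase gene Cs (-0.24, adjusted p = 0.0284), 3.23% against 5.27% of all genes. In Tfh against non-Tfh cells with Bach2, 1 complex II gene and 3 of these 31 fell and 0 rose (12.5% and 9.68%, against 24.4% of all genes). With empty vector 0 complex II genes passed, and of the 31 genes 1 rose and 1 fell (6.45%, against 21.9%). Of 35 tested assembly factors outside the rule, 0 passed with the vector (median -0.05 in Tfh cells), and Cox17, a copper chaperone for complex IV, rose in Tfh cells with either vector (0.54 with empty vector, adjusted p = 0.0297; 0.84 with Bach2, adjusted p = 0.0019). Of 18 tested biogenesis regulators, 0 passed with the vector. Between the cell types, the empty vector libraries gave 4 regulators lower in Tfh cells and 0 higher. These were Myc (-1.56), Gabpb2 (-1.08), Pprc1 (-1.08) and Creb1 (-0.37), a share of 22.2%, near the 21.9% of all genes. The Bach2 libraries gave 3 lower and 0 higher, a share of 16.7%, below the 24.4% of all genes. These 3 were Myc (-1.97), Pprc1 (-0.67) and Creb1 (-0.44).

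The 13 subunits encoded by mitochondrial DNA had mostly positive estimates with the vector, where the nuclear genes had negative ones. Their summed level was 9504 and 8171 CPM in Tfh cells with empty vector, 10250 and 8921 CPM with Bach2, 8294 and 7535 CPM in non-Tfh cells with empty vector and 7915 and 8071 CPM with Bach2. The groups overlapped with the vector in both cell types. Of 12 tested, 0 passed in either vector comparison, and the median was 0.14 in Tfh cells, with 2 negative estimates, and 0.03 in non-Tfh cells. Between cell types with Bach2, 5 of the 12 rose (among them mt-Nd4 at 0.44 and mt-Nd2 at 0.41) and 0 fell, 41.7% against 24.4% of all genes. With empty vector 1 rose and 0 fell, 8.33% against 21.9%. The ratio of the mitochondrial to the nuclear summed level was 0.812 and 0.656 in Tfh cells with empty vector, 0.908 and 0.859 with Bach2, 0.684 and 0.615 in non-Tfh cells with empty vector and 0.674 and 0.715 with Bach2. The ratio was higher in both Tfh libraries with Bach2 than in all 6 others, and it varied by library within the groups. The ratio is given as a description, with no test.

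**Figure D5:**
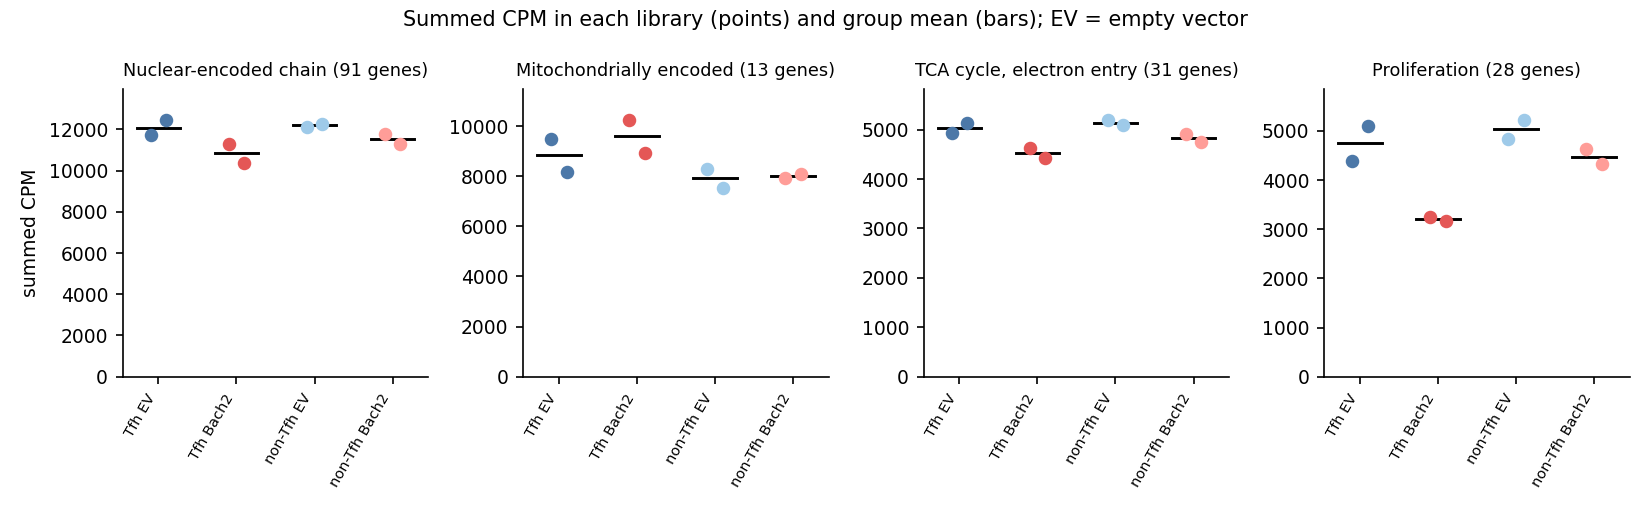
Summed CPM of 4 gene lists in each library (points) with the mean of each group (bars), on axes that start at 0. The nuclear-encoded chain runs from 10390 to 12460 CPM, the mitochondrially encoded subunits overlap between vectors, and the proliferation genes are lowest in the 2 Tfh libraries with Bach2.

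Proliferation genes moved with the vector beside the chain. Of 28 such genes, 20 fell and 0 rose with Bach2 in Tfh cells, 71.4% against 1.71% of all genes. The median was -0.63 (Cdc6, which loads the replicative helicase, at -1.23, and Aurkb, a mitotic kinase, at -0.90). In non-Tfh cells 0 passed, where 0.871% of all genes did, with a median of -0.17. Their summed level was 4393 and 5098 CPM in Tfh cells with empty vector and 3242 and 3175 CPM with Bach2, a difference of -32.4%, against 4836 and 5224 CPM and 4631 and 4322 CPM in non-Tfh cells, a difference of -11.0%. In Tfh against non-Tfh cells with Bach2, the comparison in which Cycs and Atp5b fell, 25 of the 28 fell and 1 rose (median -0.52). That was 92.9% against 24.4% of all genes. With empty vector 7 fell and 1 rose (median -0.13), 28.6% against 21.9% of all genes. The B cell markers were also lower with Bach2, at 196.8 to 235.8 against 159.9 to 188.9 summed CPM in Tfh cells. The 4 NK cell markers, of which Ncr1 was at 0 in every library, were at 61.9 to 65.6 against 90.6 to 100.5 summed CPM. Of the 5 markers of stroma and endothelium, Col3a1 and Pdpn were at 0 and only 1 gene passed the filter on low counts. Their sum, 228.9 to 236.3 against 249.6 to 281.1 CPM, was therefore almost wholly that of 1 gene. The part of cell division or of other cells in the respiratory chain values was not tested.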

How the data were processed

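RNA from 8 libraries, 2 in each of 4 groups, was analysed from the count files. The files as deposited hold raw counts per Ensembl gene: the values are whole and the totals differ between libraries. The submitters' processing notes name TopHat2, Bowtie2, featureCounts and GRCm38/mm10, and the sources used here give neither versions nor the handling of reads with several matches. Library preparation was with RNeasy Micro, Smart-Seq v4 and Nextera XT, and paired reads came from a NextSeq500, per the labels' protocols. These kits do not mark strand. Symbols, positions and transcript lengths came from GENCODE M21 on GRCm38, which matched 37693 of 39179 IDs. The 1486 others held 0.187% to 0.205% of a library's counts and stayed in the fit.

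The members and all gene lists were chosen with earlier results of these data known. Genes were kept with filterByExpr (minimum count 10, minimum total 15), which left 11475. The robust quasi-likelihood test of edgeR 4.0.16 (R 4.3.3) used all 8 libraries, a coefficient for each group and trimmed mean of M-values (TMM) factors of 0.985 to 1.01, with Benjamini-Hochberg adjustment over all tested genes and a threshold of 0.05. Each adjusted p in the text is from that test unless another tool is named. The biological coefficient of variation was 9.89%, and replicates of a group differed by a chi-square of 5.67 to 8.81 per degree of freedom, so no library was a copy. The labels do not say whether replicates are separate animals, so p-values measure only the spread between these samples. The 6 comparisons were the vector in each cell type, the cell types with each vector, the vector averaged over cell types, and the interaction. Intervals and floors cover counting error or library spread only, since reads carry no molecular identifiers.

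Named members were, by rule, up to 8 rises and 8 falls with the largest change past the threshold in each comparison. A list of core subunits and paralogs and all Ndufaf genes were added. Outside the members the rule allowed up to 3 rises and 3 falls of each pathway list, but not every such call is named. Ndufb2, Ndufa11, Ndufv2 and the 3 close to a limit through their copies (Atp5g2, Atp5l and Ndufs5) were singled out after their values were seen, as were the 4 promoters. Alternatives were DESeq2 1.42.0, other scaling factors, no filter, the compared groups alone, a replicate block, each library left out, and length offsets. The length offsets came from a loess (span 0.3) of log2 CPM, relative to the mean of the gene, on the merged length of its exons. The fit was first run on simulated counts, with planted changes larger than any member's estimate here, so that run does not bear on shifts of this size. Promoter windows are from the RefSeq table on GRCm38.p6, which matched 74 of 91 members.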

Additional observations from a re-analysis of the deposited data

How the results depend on the processing

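In Tfh cells the number of members past the threshold with Bach2 was 1, and it was 2 with no low-count filter, 0 with only the 2 groups compared, 0 with length offsets and 0 to 1 with a library left out. The median log2 fold change of the members (-0.17) was -0.10 with length offsets, -0.16 to -0.18 with other scaling factors and -0.23 to -0.11 with a library left out. In non-Tfh cells the count was 0 throughout and the median ran from -0.11 to -0.07 with a library left out. Averaged over the cell types, the count was 7 with no filter, 7 with the replicate block and 0 to 4 with a library left out, against 2, and the median ran from -0.16 to -0.10. Between cell types with empty vector, DESeq2 called 3 members, against 5, and 0 to 6 were called with a library left out (median -0.01 to 0.08). With Bach2, 4 to 6 were called (median -0.111 to 0.021). For the interaction the count was 0 throughout and the median ran from -0.152 to -0.0273.

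Replicate numbers are shared between groups, but the labels do not say that a number marks a shared animal or day, so the block is a check only. Deviations of same-numbered libraries correlated at -0.00 to 0.24 over the 6 pairs of groups. With the replicate block the count in Tfh cells was 1, in non-Tfh cells 0, and between cell types 6 with empty vector and 8 with Bach2, against 5 and 6. The block also brought past the threshold Ndufab1 averaged over the cell types (adjusted p = 0.0356), Ndufaf3 between cell types with empty vector (0.0411) and Ndufaf7 with Bach2 (0.0413), and 975 genes in all for the averaged vector, against 605. Of 3760 values of 40 named members under the alternatives, 3682 kept their side of the threshold, 57 no longer passed and 21 newly passed. No called value changed sign, and of 3538 values that did not pass in the values as reported 144 did. With 2 libraries a group the precision is limited by their spread, and for members with few counts by depth as well. For the vector in Tfh cells the median SE was 0.15 for the assembly factors and 0.10 over all members.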
